A study of Mus musculus with 48 samples.

Results

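The cytosolic ribosomal protein genes are described here in mouse brain RNA-sequencing data from 8 groups of animals. Members were all protein-coding genes of the GENCODE M21 annotation whose symbol is Rpl or Rps followed by a number, with or without a trailing a, x, l or l1, plus Rplp0, Rplp1, Rplp2 and Rpsa. The rule found 82 genes among the 48709 of the deposited tables, 51 of the large (60S) and 31 of the small (40S) subunit, and used no measured value. Rps3a1, Rpl36al, Fau and Rack1, among others, also encode ribosomal proteins or ribosome-bound proteins but their symbols fall outside the rule.

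The study asked how loss of Formin 2 (Fmn2), an actin-nucleating protein, bears on memory in young and ageing male mice and in a model of amyloid deposition. Reads were counted per gene in 48 libraries from 46 mice, all labelled strain C57BL/6J and dentate gyrus. The Fmn2 line gave 5 Fmn2+/+ and 5 Fmn2-/- mice at 3 months and 3 Fmn2+/+ and 5 Fmn2-/- mice at 8 months, where Fmn2-/- is a germline knockout present in every cell. A cross with an amyloid line (labels: APP, in the paper APPPS1-21, which expresses mutant human amyloid precursor protein and presenilin 1 in neurons) gave 7 mice labelled FMN2-/-_APP and 9 labelled FMN2 +/+ APP at 3 months, so that all of them carried the amyloid transgene. A further set of 6 APP and 6 wild-type mice was labelled 4 months.

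The ribosome joins a small subunit, which reads the mRNA, to a large subunit, which forms the peptide bond. Each ribosome holds 1 copy of nearly every ribosomal protein, and the mRNAs of these proteins are among the most abundant and most evenly produced of the cell. Many of them begin with a run of pyrimidines (the 5′ terminal oligopyrimidine, or TOP, motif) through which mTOR signalling sets their translation. The mRNAs have been copied back into the genome many times, which left processed pseudogenes that are nearly identical to their parent genes. Neurons also keep ribosomal protein mRNAs in axons and dendrites.

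The sum of counts on genes was 6818809 to 43921030 reads per mouse, and 0.234 to 0.64% of them fell on the 82 members. Fmn2 fell by 2.06 on the log2 scale in Fmn2-/- mice of 3 months (edgeR adjusted p = 2.4e-08) and by 1.89 at 8 months (edgeR adjusted p = 3.9e-06). In the cross, the mice labelled FMN2-/-_APP held 83.3 to 101.8 CPM (counts scaled to a common library size) of Fmn2 and those labelled FMN2 +/+ APP 18.9 to 23.4. Fmn2 thus goes against the labels of the cross, so its groups are named by label throughout. The sample titles of the 4-month set name PFC, and the granule cell genes Prox1 and Dsp were at 11.4 to 20.4 and at most 0.328 CPM there, against at least 181 and 68.9 CPM in every other mouse. Levels of the 4-month set are therefore not set against the dentate gyrus groups as an effect of age. The labels give separate mice within a group but no litter or day, so p-values measure only the spread between these samples. Differences between whole experiments cannot be told apart from the lanes and dates on which the libraries were run.

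Many members share sequence with copies elsewhere in the genome, and reads from such stretches cannot be told apart, so their counts are uncertain. Of the 82 members, 78 had at least 1 of 883 pseudogenes in the tables with an identical stretch of 50 bases, and 3 members shared no such stretch with any other gene. The median member shared 49.3% of its 50-base stretches. Levels below are CPM, scaled over all 46 mice by edgeR's TMM method, and per kilobase of exon where genes are compared with each other. In 3-month-old Fmn2+/+ mice the highest members were Rplp1, an acidic protein of the stalk that binds elongation factors, at 440 CPM per kilobase, Rps15 at 311, Rpl4, which lines the exit tunnel, at 307, Rpl8 at 125 and Rpl41, the shortest member with 75 coding bases, at 105.9. Among the lowest of the 79 members that passed the count filter were Rpl24 (0.487), Rpl29 (0.56), Rpsa, which is also a laminin receptor (0.618) and Rps6, the substrate of S6 kinase (0.842). In this order they shared 81.7, 66.8, 44.04 and 84.6% of their 50-base stretches, so their low ranks are uncertain. The median was 8.17 CPM per kilobase over members and 4.12 over all 16593 tested genes with a known length.

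The 10 members with under 20% shared sequence had a median of 23.1 CPM per kilobase, the 29 with 20 to 50% one of 13.2, the 22 with 50 to 80% one of 6.20 and the 18 with 80% or more one of 1.60. Spearman's rho between level and shared share was -0.57 over these 79 genes in the same 5 libraries, a description over genes and not over replicates. Reads on the sharing pseudogenes made up 4.72% ± 0.103 (SD, n = 5) of the reads on members and copies together in these mice. The sources used here do not state how reads that align to several places were counted. This share therefore does not measure how many reads members lost through shared stretches. Named pseudogenes were most numerous for Rps12 (22), Rpl31 (21), Rps19 (14), Rpl21 (14) and Rpl23a (14), and those genes stood at 1.10, 2.29, 6.38, 3.23 and 1.17 CPM per kilobase. None of these 5 genes was called in any comparison below.

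**Figure D1:**
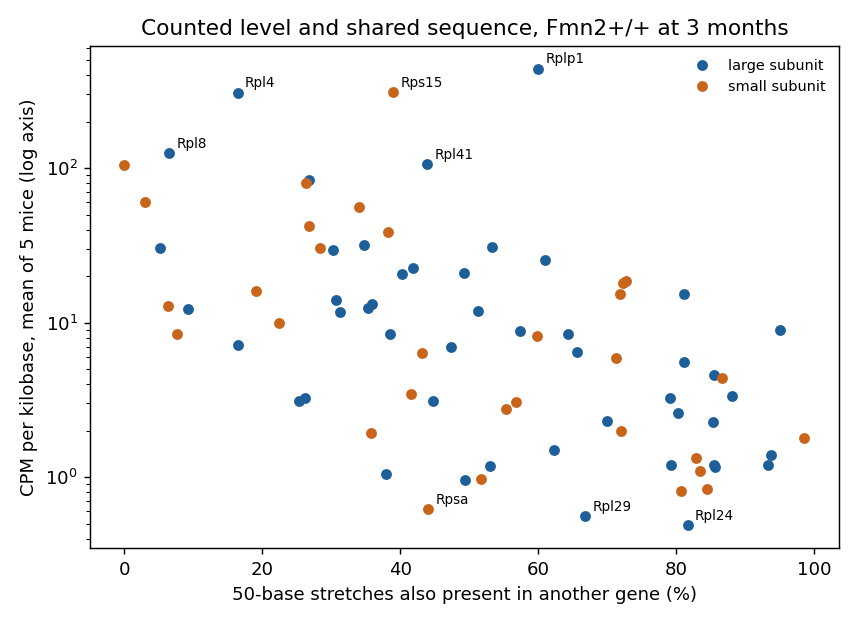
Level of the 79 tested members in 3-month-old Fmn2+/+ mice (mean of 5 mice, CPM per kilobase of exon, log axis) against the percentage of their 50-base stretches that also occur in another gene. Members with 80% or more shared sequence lie at 15.3 CPM per kilobase or below, while Rplp1, Rps15, Rpl4, Rpl8 and Rpl41 lie above 100.

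The coding sequences show how close these copies are. Rpl3, next to the peptidyl transferase centre, lies on chromosome 15 of mm10 (80077791 to 80091868), and its processed pseudogene Rpl3-ps1 lies on chromosome X (13202571 to 13203780). Of 1209 coding bases 2 differ, and 91.4% of the 50-base windows are the same in both. Rplp0, the base of the stalk, lies on chromosome 5 (115559467 to 115563727), and its copy Gm8730 lies on chromosome 8 (102864845 to 102865798), with 12 differences in 951 bases and 39.2% of windows identical. The first 60 coding bases of Rpl3 and the aligned bases of its copy, and coding bases 388 to 447 of Rplp0 with those of its copy, are shown with differing bases in capitals, since reads from the identical stretches cannot be told apart.
Rpl3: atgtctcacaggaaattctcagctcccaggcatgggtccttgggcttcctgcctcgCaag
Rpl3-ps1: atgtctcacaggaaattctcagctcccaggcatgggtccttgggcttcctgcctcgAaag
Rplp0: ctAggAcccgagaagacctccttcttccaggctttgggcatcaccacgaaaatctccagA
Gm8730: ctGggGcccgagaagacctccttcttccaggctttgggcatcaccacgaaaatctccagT

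Over the 8 groups, the lowest group mean was that of 4-month-old wild-type mice and the highest were those of the cross. For each mouse the log2 CPM was averaged over the 49 large and 31 small subunit genes that passed the count filter over all mice. The large subunit mean was lowest in 4-month-old wild-type mice (3.62 ± 0.048, SD, n = 6), followed by 3-month-old Fmn2+/+ (3.67 ± 0.068, n = 5), 4-month-old APP (3.75 ± 0.084, n = 6), 3-month-old Fmn2-/- (3.78 ± 0.11, n = 5), 8-month-old Fmn2-/- (3.80 ± 0.043, n = 5) and 8-month-old Fmn2+/+ mice (4.01 ± 0.21, n = 3), and it was highest in the mice labelled FMN2 +/+ APP (4.19 ± 0.13, n = 9) and FMN2-/-_APP (4.30 ± 0.19, n = 7). Neighbours in this order differed by less than the larger of their SDs, except 8-month-old Fmn2-/- and Fmn2+/+ mice, whose difference was about the SD of the Fmn2+/+ group. The small subunit mean followed nearly the same order, from 3.61 ± 0.060 (n = 6) in 4-month-old wild-type to 4.5 ± 0.15 (n = 9) in mice labelled FMN2 +/+ APP.

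The large minus small difference was -0.25 ± 0.028 (SD, n = 5) in Fmn2+/+ and -0.33 ± 0.039 (n = 5) in Fmn2-/- mice of 3 months. All 5 Fmn2-/- mice (-0.37 to -0.28) lay below all 5 Fmn2+/+ mice (-0.27 to -0.22). At 8 months it was -0.37 ± 0.053 (n = 3) and -0.35 ± 0.047 (n = 5) and the groups overlapped. It was -0.20 ± 0.086 (n = 7) in mice labelled FMN2-/-_APP, -0.31 ± 0.059 (n = 9) in those labelled FMN2 +/+ APP, and 0.01 in both 4-month groups (SD 0.045 in APP and 0.032 in wild type, n = 6 each). The range of group means was 4.43 on the log2 scale for Rpl29, 3.38 for Rpl34, 2.99 for Rpl3 and 2.13 for Rpl30, all of the large subunit, and 2.12 for Rps2 of the small subunit, against a median of 1.07 over 80 members. All of these genes enter the subunit means. In the cross their log2 fold changes were 0.84, 0.43, 1.32, 1.06 and 0.88. The medians there were 0.04 for large and -0.01 for small subunit genes. How much of the large minus small difference rests on these genes was not tested.

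**Figure D2:**
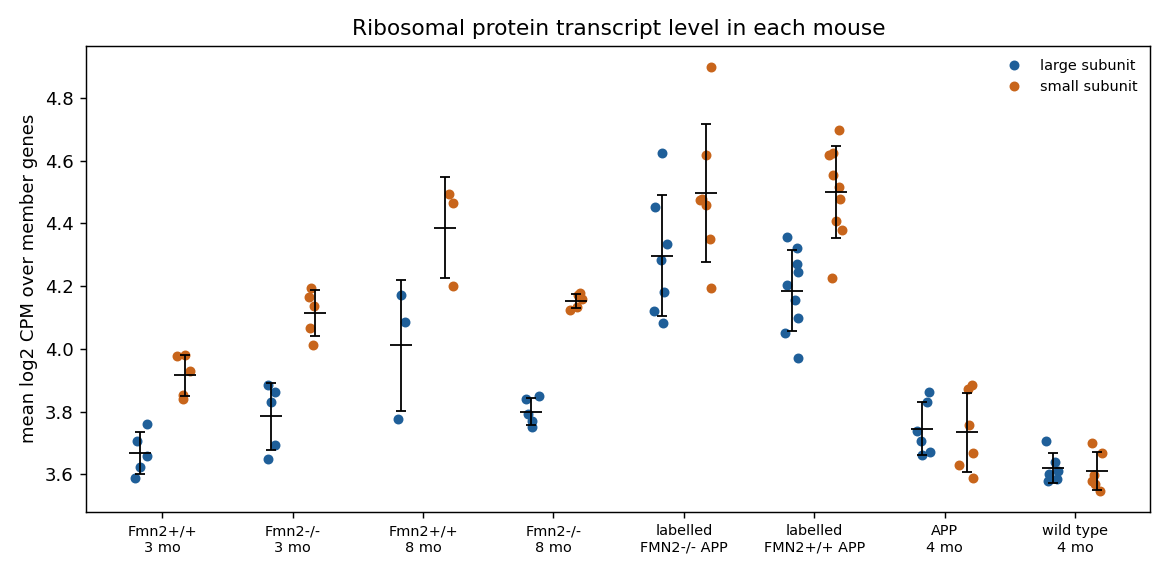
Mean log2 CPM over the 49 large (blue) and 31 small (orange) subunit genes in each mouse, by group, with the mean and SD in black. Both groups of the cross have the highest means (4.19 and 4.30 for the large subunit) with overlap with 8-month-old Fmn2+/+ mice, 4-month-old wild-type mice have the lowest, and the small subunit mean is above the large one in every group but those of 4 months.

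In 3-month-old Fmn2-/- mice, ribosomal protein transcripts lay slightly above those of Fmn2+/+ mice without a call for any single gene. Of 79 members tested, 65 had a positive log2 fold change, and the median was 0.13 for large and 0.19 for small subunit genes against 0.00 over all 16630 genes tested. No member was called at an adjusted p under 0.05 and a log2 fold change of at least 0.25 in edgeR's test, which called 0.0241% of all genes higher and 0.00601% lower. At an unadjusted p under 0.05 there were 27 members, all of them higher in Fmn2-/- mice, and DESeq2 called 11 higher. The same counts over all 16630 genes were 1056 higher and 694 lower, and 73 higher and 17 lower with DESeq2.

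The 2 groups did not overlap in 19 members, 12 of them of the small subunit, all higher in Fmn2-/- mice. Over all genes tested, 2.13% did not overlap with Fmn2-/- higher and 0.583% with Fmn2-/- lower. Rps14, part of the platform of the small subunit, stood at 62.1, 71.6, 76.2, 79.5 and 75.4 CPM in Fmn2+/+ mice and at 89.97, 106.7, 97.8, 98.1 and 99.3 CPM in Fmn2-/- mice. Every Fmn2-/- mouse was thus above every Fmn2+/+ mouse (log2 fold change 0.42, standard error 0.068, edgeR adjusted p = 0.064). Rps21 stood at 64.7 ± 4.03 (SD, n = 5) CPM in Fmn2+/+ and 83.9 ± 5.67 (SD, n = 5) CPM in Fmn2-/- mice (0.37, edgeR adjusted p = 0.069), and Rpl18 at 12.7 ± 1.16 (SD, n = 5) and 17.9 ± 1.89 (SD, n = 5) CPM (0.50, edgeR adjusted p = 0.097). The members with the smallest p in the other direction were Rpl28 (-0.11), Rps15a (-0.05) and Rps26 (-0.10), with edgeR adjusted p-values of 0.67 to 0.75. Lane 5 held all 5 Fmn2+/+ mice and 1 Fmn2-/- mouse, replicate 1, and lane 6 the remaining 4. With lane as a covariate, the genotype term therefore rests on that 1 mouse against the 5 Fmn2+/+ mice. In that fit the medians were 0.18 and 0.21 and Rpl18 had 0.25. Summed choroid plexus markers were 4125 CPM in Fmn2-/- replicate 4 and 23.7 to 68.05 CPM in the other 9 mice, and without that mouse 70 of 80 members tested were above 0 and none was called. Without Fmn2-/- replicate 1, the test called 4 members higher (Rps14, Rps21, Rpl18 and Rpl22l1). Over all 16663 genes of that fit it called 44 higher and 5 lower, against 4 and 1 with all mice.

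At 8 months the direction was opposite, and 8 members fell in Fmn2-/- mice. Of 77 members tested, 58 had a negative log2 fold change, with a median of -0.18 for large and -0.15 for small subunit genes against 0.01 over all 14665 genes tested. The test called 8 members lower and none higher, where it called 0.88% of all genes lower and 0.252% higher. At an unadjusted p under 0.05, 26 members were lower and 2 higher, and DESeq2 called 13 lower and none higher. The same counts over all 14665 genes were 1826 lower and 1593 higher, and 469 lower and 264 higher with DESeq2. In bulk tissue, fewer cells of a type and less RNA per cell cannot be told apart.

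Of the stalk proteins, Rplp1 stood at 320.5, 230.4 and 303.6 CPM in Fmn2+/+ mice and at 170.5, 170.3, 158.9, 147.4 and 187.7 CPM in Fmn2-/- mice, so that the lowest Fmn2+/+ mouse was above the highest Fmn2-/- mouse. Its log2 fold change was -0.77 (standard error 0.11, edgeR adjusted p = 0.016). Rplp0, which anchors Rplp1 and Rplp2, fell by 0.34 on the log2 scale, from 48.1 ± 3.12 (SD, n = 3) to 37.7 ± 0.947 (SD, n = 5) CPM (edgeR adjusted p = 0.046). Among other large subunit genes, Rpl38, mutated in the tail-short mouse, fell by 0.73 to 11.7 ± 1.69 (SD, n = 5) CPM (edgeR adjusted p = 0.038), and Rpl41 by 0.62 to 80.2 ± 5.78 (SD, n = 5) CPM (edgeR adjusted p = 0.030).

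In the small subunit, Rps26, at the mRNA exit channel, stood at 77.6, 51.8 and 70.6 CPM in Fmn2+/+ and at 38.5, 34.1, 32.3, 29.8 and 45.4 CPM in Fmn2-/- mice (log2 fold change -0.90, standard error 0.14, edgeR adjusted p = 0.029). Rps24 fell by 0.61 (edgeR adjusted p = 0.046) and Rps25, needed for translation from several viral internal entry sites, by 0.50 (edgeR adjusted p = 0.042). Rps16, with a tail that reaches the decoding site, stood at 11.3, 4.85 and 5.41 CPM in Fmn2+/+ and at 2.00 to 3.98 CPM in Fmn2-/- mice (-1.31, standard error 0.28, edgeR adjusted p = 0.047), with 1 Fmn2+/+ mouse, replicate 1, far above the other two and a log2 fold change of -0.72 without it. The groups did not overlap in 17 members that were lower in Fmn2-/- mice, including all 8 called, and in 1 that was higher (Rps15a), against 6.78% and 4.95% of all genes tested. The members with the smallest p above 0 were Rps15a (0.19), Rpl22l1 (0.24) and Rpl22 (0.15), with edgeR adjusted p-values of 0.14 to 0.28.

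**Figure D3:**
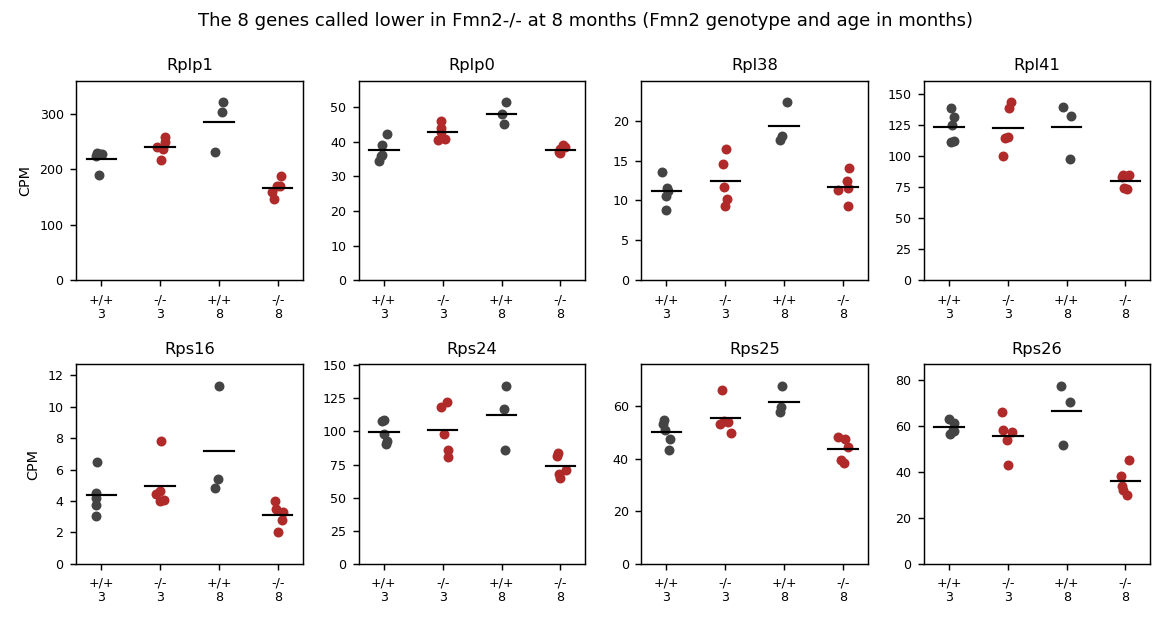
CPM of the 8 members called lower at 8 months in each mouse of the 4 groups of the Fmn2 line (grey, Fmn2+/+; red, Fmn2-/-; bars are group means; axes start at 0). In each panel the 5 Fmn2-/- mice of 8 months lie below the 3 Fmn2+/+ mice of that age, and at 3 months the genotypes overlap in all panels.

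These 8 calls rest on few and unequal libraries. Fmn2+/+ replicate 1 was run on lane 6 with 43921030 reads and all other 8-month libraries on lane 7 with 6818809 to 11675280. Without replicate 1, or with lane as a covariate, no member was called, although the medians kept their sign (-0.18 and -0.10 with the covariate). Replicate 1 was the only 8-month library on lane 6, so both fits compare the same lane 7 mice. Over all genes the test called 2 higher and 2 lower of 14928 without replicate 1. With the covariate it called 2 higher and 1 lower of 14665. Leaving out Fmn2+/+ replicate 2 gave 25 members lower, leaving out Fmn2+/+ replicate 3 gave 5, and leaving out Fmn2-/- replicate 5 gave 2. Leaving out Fmn2-/- replicate 1, 2, 3 or 4 gave none, where 2 to 4 of all genes were called higher and 2 to 6 lower. Among all genes, the test called 129 of 14665 lower and 37 higher with all mice. Without Fmn2+/+ replicate 2 it called 1431 of 15021 lower and 1656 higher. Without Fmn2+/+ replicate 3 or Fmn2-/- replicate 5 it called 114 and 6 genes lower. With counts corrected for gene length and GC content, 1 member (Rps26) was called and the medians were -0.14 and -0.10, with log2 fold changes of -0.14 for Rplp0, -0.48 for Rplp1 and -0.48 for Rpl38. With all pseudogenes that share 50 bases added, Rplp0 had -0.21. Fmn2-/- replicates 2 and 3 differed from each other less than any other pair of their group (chi-square of 1.58 per degree of freedom against 3.28 or more). With the counts of both summed into 1 sample no member was called, where 2 of all genes were called higher and 3 lower. Summed astrocyte markers were 1867 to 2141 CPM in Fmn2-/- and 1582 to 1764 CPM in Fmn2+/+ mice of 8 months, with 1 of 5 called higher. Summed microglia markers were 276 to 310 CPM and 235 to 264 CPM, with 0 of 5 called. Summed oligodendrocyte markers were 1798 to 2588 CPM and 2458 to 3135 CPM, with 0 of 5 called, and choroid plexus markers were 607.5 and 578.6 CPM in Fmn2-/- replicates 2 and 3 and 29.3 to 222 CPM in the other 6 mice. Summed blood markers were 71.5, 28.04 and 66.5 CPM in the Fmn2+/+ mice, lowest in the replicate that was also lowest for Rplp1, Rps26, Rpl41 and Rps24, and 27.7 to 65.5 CPM in Fmn2-/- mice. The part of these cells in the result was not tested.

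Promoter sequences from RefSeq (GRCm38.p6), 250 bases before to 50 after the start, were matched by symbol for 62 of the 82 members. A transcript start of C followed by 4 or more pyrimidines was present in 12 of 62 (19.4%) against 2.49% of 27025 promoters. It was looked for only at the annotated start, and 10 members had several promoter rows, of which the first was used. A member whose transcripts start elsewhere is counted as lacking it, so 12 is not the number of TOP mRNAs. This limit also holds for the called genes named below. The ETS-type motif CCGGAAG, searched on both strands over the 300 bases, was present in 24 (38.7%) against 9.12%. TATAAA, searched in the same way, was present in 6 (9.68%) against 14.2%, and the GC-box motif CCCGCCCC in 9 (14.5%) against 16.7%. Of the 8 genes called at 8 months, 7 had a promoter in the table, 1 with a pyrimidine start (Rpl38) and 4 with CCGGAAG (Rpl38, Rpl41, Rps25 and Rps26). The 60 bases before the start and the first 15 after it are shown for Rpl38 (chr11:114668520-114668594, plus strand), for Rpl41 (chr10:128549154-128549228, minus strand) and for Rplp0 (chr5:115559407-115559481, plus strand), chosen as a called gene with both motifs, with 1 and with neither, and the capitals mark CCGGAAG and the pyrimidines at the start.
Rpl38: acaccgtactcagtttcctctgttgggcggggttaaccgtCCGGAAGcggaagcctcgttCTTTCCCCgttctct
Rpl41: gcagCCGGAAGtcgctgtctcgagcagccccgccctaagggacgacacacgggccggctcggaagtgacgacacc
Rplp0: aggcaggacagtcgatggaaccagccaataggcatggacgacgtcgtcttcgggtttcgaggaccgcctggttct

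The difference between the 2 ages was tested as an interaction, the log2 fold change at 8 months minus that at 3 months, in 1 fit over the 18 mice. It was negative for 75 of 80 members tested, with a median of -0.32 for large and -0.41 for small subunit genes against -0.02 over all 17046 genes tested. The test called 21 members, 12 large and 9 small, all negative, where it called 2.99% of all genes lower and 0.733% higher. The 5 largest were Rps16 (-1.50), Rpl36 (-1.45), Rpl27 (-0.93), Rplp1 (-0.91) and Rpl38 (-0.90), with edgeR adjusted p-values of 0.0036 to 0.045. Rplp1 went from 219.4 ± 16.8 (SD, n = 5) CPM in Fmn2+/+ and 240.2 ± 15.4 (SD, n = 5) CPM in Fmn2-/- mice at 3 months to 285 ± 47.9 (SD, n = 3) and 166.9 ± 15.01 (SD, n = 5) CPM at 8 months. Rps9, which had the next smallest adjusted p after Rplp1 (0.0087 in edgeR's test), lay between 100.5 and 116.4 CPM in Fmn2+/+ and between 123.3 and 141.9 CPM in Fmn2-/- mice of 3 months, and between 128.2 and 168.5 CPM and 120.1 and 128.4 CPM at 8 months. Rpl27 was 1.53 to 2.32 CPM in Fmn2+/+ mice of 3 months and 3.03 to 3.34 in those of 8 months, while Fmn2-/- mice stood at 1.87 to 2.96 and 1.92 to 2.40 CPM.

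Fmn2+/+ mice of 8 months held more ribosomal protein RNA than those of 3 months in 74 of 80 members (median difference of group means 0.38 on the log2 scale), and Fmn2-/- mice of 8 months stood above 3-month-old Fmn2+/+ mice in 58 (median 0.20). Age and sequencing run cannot be told apart here. The members with the smallest p above 0 in the interaction were Rps15a (0.23), Rpl15 (0.13) and Rpl3l (0.42), with edgeR adjusted p-values of 0.074 to 0.79. The number called was 2 without Fmn2+/+ replicate 1 of 8 months, 4 without its replicate 3 and 33 without its replicate 2, and with length and GC correction it was 1 (Rps9), with medians of -0.22 and -0.24 and values of -0.91 for Rpl36, -0.54 for Rplp1 and -0.59 for Rpl38. Rps16 had -0.93 without Fmn2+/+ replicate 1 of 8 months. Leaving out any of the other 15 mice gave 9 to 23 members, where 173 to 547 of all genes were called lower and 20 to 232 higher. Among all genes, 510 were called lower and 125 higher in the interaction with all mice. Without Fmn2+/+ replicates 1, 3 and 2 of 8 months, 8, 93 and 1378 genes were called lower. Without replicate 2, 1413 genes were called higher, and with length and GC correction 15 were called lower. Blood markers were negative in the interaction for 5 of 5 genes (median -0.70, 1 called lower) and choroid plexus markers for 5 of 5 (median -2.43, 0 called), and their part in the result was not tested.

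**Figure D4:**
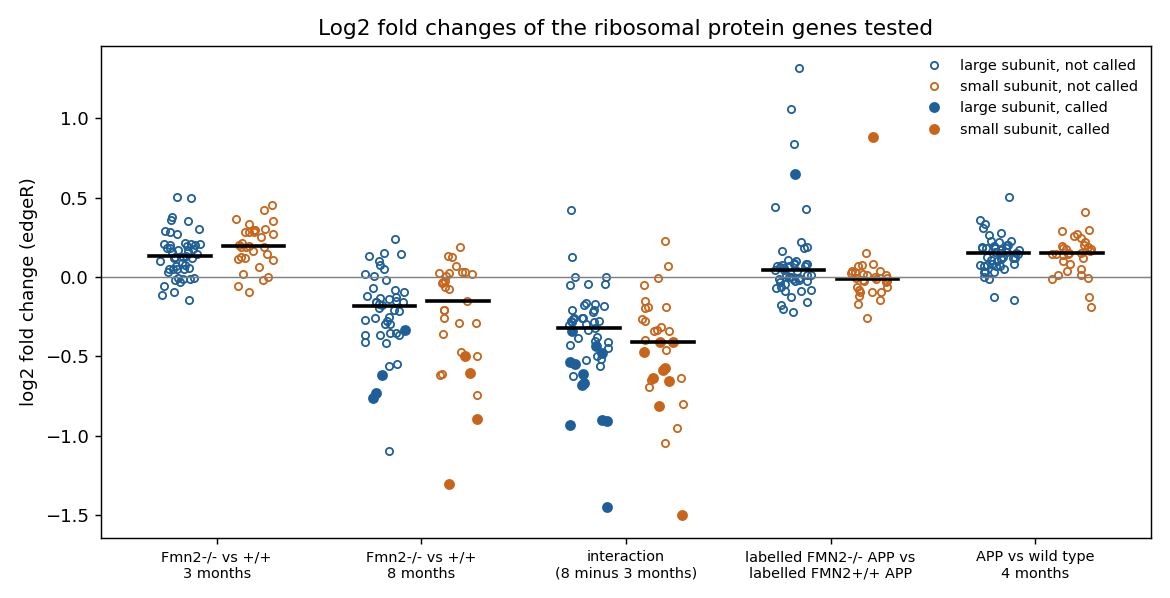
Log2 fold changes (edgeR) of the members tested in each comparison, large subunit in blue and small in orange, with filled points for called genes and black bars for medians. The medians lie above 0 at 3 and 4 months, below 0 at 8 months and in the interaction, and near 0 in the cross.

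In the cross, 2 members rose in mice labelled FMN2-/-_APP and the medians lay near 0. Of 79 tested, 42 were higher in mice labelled FMN2-/-_APP, and the medians were 0.04 for large and -0.01 for small subunit genes, against 0.01 over all 16656 genes. The calls (adjusted p under 0.05 and log2 fold change of at least 0.5) were 2 members higher and 0 lower, where 0.438% of all genes were called higher and 0.336% lower. For the 0 lower, 3 members were lower at an unadjusted p under 0.05, and DESeq2 called 0. The same counts over all 16656 genes were 1294 lower, and 178 lower with DESeq2. No member had groups that did not overlap, against 0.36% higher and 0.186% lower of all genes.

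Rps2, at the mRNA entry of the small subunit, stood at 24.8, 51.8 and 60.98 CPM (lowest, median, highest of 7) in mice labelled FMN2-/-_APP and at 23.4, 26.5 and 30.8 CPM (of 9) in mice labelled FMN2 +/+ APP. Replicate 1 of the first group lay within the range of the second and the other 6, at 48.8 CPM or more, lay above it (log2 fold change 0.88, standard error 0.13, edgeR adjusted p = 0.0021). That mouse was also the lowest of its group for Rpl3 (6.96 CPM), Rpl29 (0.427 CPM) and Rpl30 (13.7 CPM), though not for Rpl34 (24 CPM). Whether Rps2 belongs with the genes of separate levels described below was not tested. Rps2 was 9.68 to 17.2 CPM in all mice of the Fmn2 line and 25.2 to 39.7 CPM in the 4-month set. Rpl28 stood at 7.16, 9.64 and 11.5 CPM against 3.50, 6.45 and 8.26 CPM (0.65, standard error 0.16, edgeR adjusted p = 0.048), with overlap between the groups, and it was called in 3 of the 16 fits that left out 1 mouse. Rpl3 had the largest difference (1.32, standard error 0.41, edgeR adjusted p = 0.12) and was not called. With all pseudogenes that share 50 bases added to their parent genes, Rpl3 had 0.39 and Rps2 0.79, and Rps2 was still called in edgeR's test. The members with the smallest p below 0 were Rpl15 (-0.22), Rpl22 (-0.18) and Rps15a (-0.26), with edgeR adjusted p-values of 0.21 to 0.29.

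Summed choroid plexus markers were 9130 and 5994 CPM in replicates 4 and 5 labelled FMN2 +/+ APP and 41.7 to 377.5 CPM in the other 14 mice, and Rps2 was called with either left out.

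A few members took separate levels in single mice of the cross. The SD within the groups of the cross was 1.65 on the log2 scale for Rpl29, 1.45 for Rpl34, 1.002 for Rpl3, 0.79 for Rpl30 and 0.50 for Rplp0, against a median of 0.25 over 80 members. In the 4-month set the SDs of these genes were 0.086 to 0.14. Rpl3 lay between 2.43 and 6.50 CPM in the 18 mice of the Fmn2 line and between 19.3 and 24.9 CPM in the 12 mice of the 4-month set. In the cross it ranged from 4.95 to 49.1 CPM, and no mouse lay between 6.96 and 20.9 CPM. Rpl34 was 2.05 to 4.26 CPM in the Fmn2 line and 23.1 to 34.4 CPM in the 4-month set, and in the cross 4 mice were at 2.64 to 4.24 CPM and the other 12 at 20.9 to 57.1 CPM. Rpl29 was 0.20 to 0.92 CPM, 7.42 to 11.3 CPM and, in the cross, 0.369 to 10.7 CPM with no mouse between 0.973 and 4.61 CPM. Rpl30 was 8.20 to 13.3 CPM, 23.7 to 33.7 CPM and, in the cross, 10.9 to 62.2 CPM with no mouse between 13.7 and 33.5 CPM. In the 2 mice with 2 runs each, both runs gave the same level, with Rpl3 at 44.5 and 40.5 CPM in 1 mouse and at 6.17 and 6.31 CPM in the other. These genes were picked out after their values were seen.

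Low counts on Rpl3 went with high counts on the copy whose sequence is shown above. In the Fmn2 line Rpl3-ps1 held 11.97 to 18.1 CPM and in the 4-month set 0.0958 to 0.402 CPM. The gene and its copy together held 15.9 to 22.3 CPM in the Fmn2 line and 19.6 to 24.98 CPM in the 4-month set, ranges that overlap where those of Rpl3 alone did not. Over the 16 mice of the cross Rpl3 varied 9.93-fold, Rpl3-ps1 varied 54.9-fold and their sum 2.34-fold. The mouse with the most Rpl3 (49.1 CPM, labelled FMN2-/-_APP replicate 4) held 2.42 CPM of the copy, and the mouse with the least (4.95 CPM, labelled FMN2 +/+ APP replicate 8) held 17.1 CPM. Gm8730 held 10.4 to 15.4 CPM in the Fmn2 line and at most 0.304 CPM in the 4-month set. The 4 mice of the cross with the fewest reads on Gm8730 (0.0408 to 0.43 CPM) had the most on Rplp0 (97.4 to 129 CPM). Over the 16 mice of the cross, Rplp0 varied 3.65-fold and its sum with Gm8730 still 2.80-fold. Gm8730 held at most 18.5 CPM there, while Rplp0 ranged from 35.3 to 128.8 CPM. For Rps3a1, outside the rule, the range was 128-fold for the gene and 2.54-fold for the sum with Rps3a3. Rps3a3 is a processed pseudogene taken as its copy by name, and the 2 sequences were not aligned. For Rpl29, Rpl30 and Rpl34 the copies did not take up the difference. Those of Rpl30 held at most 1.07 CPM and those of Rpl34 at most 1.202 CPM in any mouse, and those of Rpl29 held 2.50 to 6.21 CPM over all groups.

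**Figure D5:**
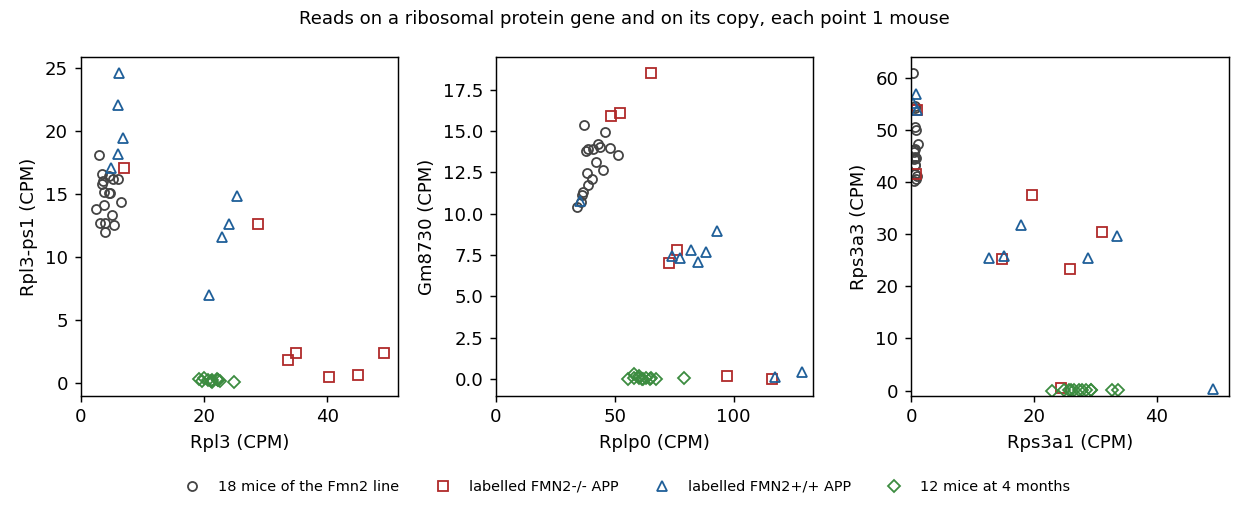
CPM of 3 ribosomal protein genes, each against that of a processed pseudogene taken as its copy, 1 point per mouse. Circles are the 18 mice of the Fmn2 line, squares and triangles the cross by label, and diamonds the 12 mice of the 4-month set. The sequences of Rps3a1 and Rps3a3 were not aligned. The 5 mice with the most Rpl3 (33.6 to 49.1 CPM) hold 0.449 to 2.42 CPM of the copy. The Fmn2 line lies at low values of Rpl3 and Rps3a1, and the 4-month set at low values of their copies.

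At 4 months, ribosomal protein transcripts of APP mice lay slightly above those of wild-type mice. Of 79 members tested, 71 had a positive log2 fold change, and the median was 0.15 for both subunits against 0.00 over all 16733 genes. No member was called at an adjusted p under 0.05 and a log2 fold change of at least 0.5, where 2.19% of all genes were called higher and 0.155% lower. At an unadjusted p under 0.05 there were 31 members, all higher, and DESeq2 called 0. The same counts over all 16733 genes were 1263 higher and 1133 lower, and 378 higher and 42 lower with DESeq2. Rps4x, the X-linked small subunit gene, was 24.8, 25.4 and 32.2 CPM (lowest, median, highest of 6) in APP and 20.6, 21.9 and 24.3 CPM in wild-type mice. It was the 1 member whose groups did not overlap, against 2.43% of all genes higher and 0.944% lower, with a log2 fold change of 0.26 (edgeR adjusted p = 0.049) under the fold threshold. Rps26 (0.27) and Rplp1 (0.28) followed with edgeR adjusted p-values of 0.066 and 0.088, and in the other direction Rpl11 (-0.15) and Rpl31 (-0.13) had 0.56 and 0.69. All APP mice were run on lane 7 and all wild-type mice on lane 5, so lane and genotype cannot be told apart. Summed microglia markers were 398 to 521 CPM in APP and 257 to 283 CPM in wild-type mice, with 4 of 5 called higher, and summed oligodendrocyte markers were 1256 to 1927 CPM and 2061 to 5882 CPM, with 1 of 5 called lower. Their part in the small shift was not tested.

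Of the paralog pairs, the tissue-restricted forms were nearly silent. Rpl3l, known from heart and skeletal muscle, had group means of 0.236 to 0.388 CPM, Rpl39l 0.0268 to 0.217 CPM, and Rpl10l, known from testis, gave 2 reads in all 46 mice. The other pairs were both expressed. Rpl22 stood at 88.2 ± 4.61 (SD, n = 5) CPM in 3-month-old Fmn2+/+ mice and Rpl22l1 at 12.9 ± 0.65 (SD, n = 5) CPM, with 70.3% protein identity between them. Rpl22l1 was 18.3 ± 2.93 (SD, n = 5) CPM in Fmn2-/- mice of that age, above all Fmn2+/+ mice (log2 fold change 0.51, edgeR adjusted p = 0.14). Rpl7 and Rpl7l1, with 40.7% protein identity, stood at 30.7 and 12.2 CPM per kilobase in 3-month-old Fmn2+/+ mice. Rps27 and Rps27l differ at 3 of 84 residues, and Rps27l had the higher level, with 10 CPM per kilobase against 1.80. Rps27 shared 98.6% of its 50-base stretches with other genes, the highest share of the 79 members tested, and Rps27l 22.4%, so the order of the pair is uncertain. Their coding sequences share 76.2% of bases and no 50-base window with each other, as coding bases 4 to 63 show, with differing bases in capitals.
Rps27: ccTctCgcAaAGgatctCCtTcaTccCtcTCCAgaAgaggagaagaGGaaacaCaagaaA
Rps27l: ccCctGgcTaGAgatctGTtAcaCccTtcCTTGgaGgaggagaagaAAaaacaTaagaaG

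Of the other lists, the longest, that of mitochondrial ribosomal proteins, had the most calls, in the interaction (15 of 77, against 3 of 9 elongation factors). Of the 5 ribosomal protein genes outside the rule, only Rpl36al was called, in the interaction (-0.50, edgeR adjusted p = 0.042). Of 77 mitochondrial ribosomal protein genes tested, which build the separate ribosome of that organelle, 65 were lower at 8 months (median -0.16) with 1 called (Mrpl11, -0.38, edgeR adjusted p = 0.043), and 15 of 77 were called lower in the interaction (median -0.25), where 2.99% of all genes were, led by Mrps12 (-0.68). Among 9 elongation factors and their partners, Tpt1 (-0.66) and Eef1d (-0.32) were called lower at 8 months (edgeR adjusted p = 0.047 each), and both and Eif5a in the interaction. Of 29 initiation factors, Eif5 (0.29) and Eif1 (-0.35) were called in the interaction, and of 36 ribosome biogenesis genes Bop1 (-0.35). Among 14 regulators of the translation of ribosomal protein mRNAs, Akt1s1, an mTOR complex 1 subunit, was lower at 8 months (-0.45, edgeR adjusted p = 0.046) and in the interaction (-0.59). The test called 2.99% of all genes lower and 0.733% higher in the interaction, and 0.88% lower at 8 months. A single call in any of these lists is therefore not read as a result about the list. None of these lists had a call at 3 months, at 4 months or in the cross.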

How the data were processed

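RNA was extracted with TRIZOL from whole tissue and made into TruSeq libraries. Per the study's methods, the authors used STAR for alignment to mm10 and HTSeq for gene counts. The annotation release and the strand setting are not given in the sources used here. The deposited values are raw read counts per gene, 1 table per library, and the 2 runs of each of 2 mice were summed. Members and gene lists were chosen with earlier results of these data known.

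Counts were tested with edgeR 4.0.16 (R 4.3.3): TMM scaling, filterByExpr and the quasi-likelihood F test, with Benjamini-Hochberg adjustment over all genes tested. The Fmn2 comparisons used a log2 fold change of at least 0.25 and the amyloid comparisons 0.5, both at an adjusted p under 0.05. DESeq2 1.42.0, other scalings and filters, correction for length and GC content, summed pseudogenes, lane, and each mouse left out in turn were alternatives; summing all pseudogenes that share 50 bases was added after seeing the data. Log2 CPM used a prior count of 2. Stretches of 50 bases came from GENCODE M21 transcripts. Depth limits the precision of weak members at 8 months most. The fit was tested on simulated data.

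Genes were named by rule: members called in each comparison (the 5 largest when over 10), otherwise the 3 with the smallest p in each direction; the 5 highest and lowest per kilobase; paralog pairs; members with the most named pseudogenes; Fmn2; ribosomal genes outside the rule; and up to 3 called genes per other list and direction. Other genes were named after their values were seen. Some genes that the rule names are not reported here.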

Additional observations from a re-analysis of the deposited data

Results flagged for a closer look

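Among 154 sets of values of members and subunit means (groups of 4 to 10 mice), 13 had 1 mouse far from the others, where chance gives about 1 in 20. In the mice labelled FMN2 +/+ APP, replicate 8 was lowest for Rplp1 (90.6 CPM) and Rps21 (88.6 CPM), replicate 9 was highest for Rps25 (75.03 CPM) and replicate 6 for Rpl34 (57.1 CPM). In the mice labelled FMN2-/-_APP, replicate 1 was lowest for Rps2 (24.8 CPM) and Rpl30 (13.7 CPM). In 4-month-old APP mice, replicate 5 was highest for Rplp0 (79.0 CPM), Rps14 (114.8 CPM) and Rps4x (32.2 CPM), and in wild-type mice of that set replicate 6 was highest for Rps26 (21.0 CPM). In 3-month-old mice, Fmn2+/+ replicate 3 was lowest for Rplp1 (189.6 CPM), Fmn2-/- replicate 2 highest for Rps25 (66 CPM) and Fmn2-/- replicate 6 highest for Rps16 (7.80 CPM).

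Between 3 and 8 months the genotype effect differed, by the interaction term of edgeR's test, for the 5 named members Rps16 (-1.50), Rpl36 (-1.45), Rpl27 (-0.93), Rplp1 (-0.91) and Rpl38 (-0.90). Of these, Rplp1 was called in 24 of 27 alternative fits and the others in 5 to 11.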

How the results depend on the processing

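Medians of large and small subunit genes kept their sign at 3, 8 and 4 months and in the interaction in every alternative, while those of the cross lay near 0 and changed sign in some. The fit with lane at 3 months rests on 1 Fmn2-/- mouse. The number of members called did not hold. At 3 months it was 11 higher with DESeq2, 2 without a filter on low counts and 0 to 4 with 1 mouse left out, where 2 to 44 of all genes were called higher. At 8 months it was 13 lower with DESeq2, 16 without the filter, 5 with reads drawn down to the smallest library, 1 with length and GC correction, 0 with lane as covariate, 0 with Fmn2-/- replicates 2 and 3 summed, and 0 to 25 with 1 mouse left out. In the interaction it was 1 with length and GC correction (small subunit median -0.24), 11 with those replicates summed, and 2 to 33 lower and 0 to 1 higher with 1 mouse left out. In the cross it was 1 higher without the filter and 1 to 2 with 1 mouse left out. At 4 months it was 1 higher by adjusted p alone, where 491 of all genes were. Among all genes, the fits without the filter called 11 higher at 3 months, 684 lower at 8 months and 72 higher in the cross. At 8 months, 41 genes were lower with reads drawn down, 7 with length and GC correction, 1 with lane as covariate and 3 with Fmn2-/- replicates 2 and 3 summed. In the interaction, 196 of 17123 genes were lower and 31 higher with those replicates summed.

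With the replicate number as a block, 0 members were called at 8 months and in the interaction. With block and correction, 1 and 0 were called, with interaction medians of -0.19 and -0.25. Of 14452 genes at 8 months, the block fit called 2 higher and 2 lower, and with correction 2 and 3. Of 16839 genes in the interaction, both called 0. These fits kept only replicate numbers present in both genotypes, 3 at 8 months and 4 at 3 months. The numbers did not pair the mice: deviations of same-numbered mice correlated by 0.052 at 3 months, -0.036 at 8 months, 0.069 in the cross and 0.005 at 4 months on average. Against 3-month-old Fmn2+/+ mice, subunit means scaled by raw library totals were 0.20 (large) and 0.30 (small) in 8-month-old Fmn2-/- mice and 0.0048 (large) in 4-month-old wild-type mice, and without members mostly shared with named pseudogenes the small subunit mean of the latter was -0.39. With lane as covariate, a fit that rests on Fmn2-/- replicate 1 alone at 3 months, Rps26 reversed there (0.16).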
